A study of Mus musculus with 36 samples.

Results

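Reads with sporadic methylation were those in which 1 to 3 of 20 CpGs of the *Wnt1DR* DMD, the differentially methylated domain of the inserted *Rasgrf1* imprinting control region, were called methylated after bisulfite conversion. They numbered 38286 of the 280217 reads used from 36 libraries, or 13.7 %. A read was used if the authors' software had not excluded it, if it matched the reference at 98 % identity or more and if each of the 20 CpGs was called methylated or unmethylated. The reads were chosen by their number of methylated calls, so their shares are given as a description without a test. The position of a call, its distance from the next call and the conversion of cytosines outside CpGs were not used by the choice.

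The *Wnt1DR* allele carries the repeats and the DMD of *Rasgrf1* downstream of *Wnt1*, and every sample of the series carries it. Tail DNA came from 12 +/DR mice with paternal transmission (generations F1, F2, F4, F5 and F6) and from 8 DR/+ mice with maternal transmission (F2, F3, F5 and F6). Extraembryonic tissue (EE), head, spine and visceral organs of e9.5 embryos gave 4 +/DR and 4 DR/+ libraries, and the labels do not say which tissues came from the same embryo. Unfractionated sperm came from 2 DR/DR males, the pellet and the supernatant of a swim-up assay from 2 +/DR males, and oocytes from 1 DR/DR pool and 1 DR/+ pool. Oocyte DNA was mixed with carrier DNA and amplified with a nested PCR, which the other samples were not. The number of reads used per library lay between 1694 and 26496 with a median of 7169. The reads carry no molecular identifiers, so many reads may come from 1 starting molecule, and intervals around a share cover counting error only.

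At imprinted loci, 5mC set in 1 germline is copied after each cell division by the maintenance methyltransferase, which acts on CpGs that are methylated on the older strand. The allele from the other parent stays largely free of 5mC. De novo methyltransferases can add single methyl groups to such a copy, and Tet enzymes start their removal, so that an unmethylated allele can still carry isolated 5mC. In bisulfite sequencing an unmethylated cytosine is read as thymine, and a cytosine that escaped conversion looks like 5mC. Cytosines outside CpGs, called CpHs, are rarely methylated in most tissues, so the share of CpHs left unconverted was taken as a measure of this background. Whether some CpHs were truly methylated, in oocytes or elsewhere, was not tested.

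The 250-nt reference matched the mouse genome (NCBIM37) at 1 place, chr9:89774437-89774686 on the plus strand, which is the native copy of the sequence. The annotation has no gene there, and the native copy ends 29.9 kb before the start of *Rasgrf1* (89804613 to 89921814, plus strand). The 20 CpGs are numbered from 1 to 20 in the 5′ to 3′ direction. CpGs 1 to 10 lie within 51 nt and CpGs 11 to 20 are spread over 114 nt. The sites below carried the highest or the lowest share of the sporadic calls in at least 1 group, and are shown unconverted, 5′ to 3′, with the CpG in capitals.
CpG 1: ataaagccagCGctgtgctgct
CpG 2: gtgctgctgcCGcgcttcgcgg
CpG 7: acttcgctacCGtttcgcggcc
CpG 9: taccgtttcgCGgccgcgctgc
CpG 11: ttcgcggccgCGctgctgctcc
CpG 12: cacatccatcCGtggctaccgc
CpG 16: ctatggctgcCGcacttcactg
CpG 20: acaactaccaCGactgctactg
Their cytosines lie at positions 89774498, 89774512, 89774538, 89774545, 89774551, 89774573, 89774625 and 89774665 of chromosome 9. CpGs 7 and 12 are the 2 of the 20 that are followed by T. A C follows 15 CpGs, a G follows 2 and an A follows CpG 20.

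Sporadic reads were a large class where the allele had come from the mother and a small one in tails where it had come from the father. In the 8 maternal tails they were 27.4 ± 1.81 % of reads (SD, n = 8), from 25.2 % in 31075 to 30.8 % in 32178. In the 12 paternal tails they were 1.02 ± 1.29 % (SD, n = 12), with a median of 0.775 % and a highest value of 4.72 % in 32529. The paternal tail 30999 had 0 of 2563 reads, which allows a share of up to 0.117 %. The 2 sets of tails did not overlap.

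The groups differed in the number of reads with few calls of any kind. Reads without a methylated call were 71.5 ± 1.55 % of reads in maternal tails and 1.68 ± 1.94 % in paternal tails. Among reads with 0 to 3 calls, which leaves out the methylated majority of the paternal tails, the sporadic share was 27.7 ± 1.74 % in maternal tails and 44.7 ± 28.7 % in paternal tails. Between 1 and 678 such reads per library stand behind the second value, and 5 of the 12 paternal tails had fewer than 20 sporadic reads. Those 5 were left out of values that rest on the position of a call, except where a lower minimum is named.

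In e9.5 tissues with maternal transmission the share was 13.0 ± 0.602 % (SD, n = 4), with 13.6 % in EE, 13.0 % in head, 13.2 % in spine and 12.1 % in organs. None of these 4 libraries reached the lowest maternal tail. With paternal transmission the e9.5 share was 5.80 ± 2.71 %, from 8.68 % in EE and 7.50 % in organs to 3.98 % in spine and 3.05 % in head. Unfractionated sperm had 14.6 % in 35084 and 13.7 % in 35090. The sperm pellets had 16.6 and 16.3 %, and the supernatants 17.1 and 18.1 %. The oocyte pools stood far apart, at 43.5 % (95 % Wilson interval 41.1 to 45.8) in pool 1 and 9.77 % (9.33 to 10.2) in pool 2.

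The limits of the class fell where reads were already few in most groups. In maternal tails 20.4 ± 1.49 % of reads had 1 call, 5.50 ± 0.993 % had 2, 1.52 ± 0.705 % had 3, and 0.438 ± 0.155 % had 4, just outside the class. In the 2 pellets the means were 12.5, 2.70, 1.23 and 1.08 % for 1, 2, 3 and 4 calls. In unfractionated sperm the means were 1.41, 1.17 and 1.21 % for 3, 4 and 5 calls, so the limit did not mark an end there. Reads with 4 calls exceeded those with 3 in the mean of paternal tails (0.145 beside 0.105 %). They also did so in paternal e9.5 tissues (0.321 beside 0.187 %). Oocyte pool 2 departed most, with 0.520 % of reads at 3 calls and 19.9 % at 4. Of the 3212 reads with 4 calls in pool 2, 3204 had the same CpGs methylated, 2, 3, 5 and 9.

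The rate of methylated calls was set against the rate of unconverted CpHs in the same reads, those with 0 to 3 calls. Most reads held 60 CpHs, and 64 in oocytes. Reads with more than 5 unconverted CpHs or under 95 % conversion had already been excluded, which cuts the CpH rate from above. In maternal tails 1.82 ± 0.165 % of CpGs were called methylated and 0.429 ± 0.0528 % of CpHs were unconverted, a ratio of 4.29 ± 0.625 with a lowest value of 3.52. The ratio was 3.59 and 4.03 in sperm, 3.78 and 3.76 in the pellets, and 3.16 and 3.26 in the supernatants. It was lower in maternal e9.5 tissues, at 1.48 ± 0.189, with 1.21 in EE, 1.49 in head, 1.64 in spine and 1.58 in organs. In paternal e9.5 tissues it was 2.80 ± 0.557. The oocyte pools had 4.26 and 1.69. In the 9 paternal tails with any unconverted CpH it was 7.18 ± 5.05, from 2.43 to 16, with few reads behind each value.

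The same comparison can be put as a share of reads. At its own CpH rate, 20 sites would give each maternal tail 6.93 to 9.54 % of such reads with at least 1 call, while 25.4 to 30.9 % were measured. In maternal EE 13.5 % would be given by the CpH rate and 13.7 % were measured, so both shares were close there. Its CpH rate, 0.725 %, was the highest of the maternal e9.5 tissues. Its reads without a call held 0.454 unconverted CpHs per read, and its sporadic reads only 0.314. In the other maternal e9.5 tissues the measured shares were 12.2 to 13.3 % beside 8.24 to 9.07 %. The highest CpH rate of any library with 20 or more such reads, 1.36 %, was in the paternal tail 32415, which had 60 of them.

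**Figure D1:**
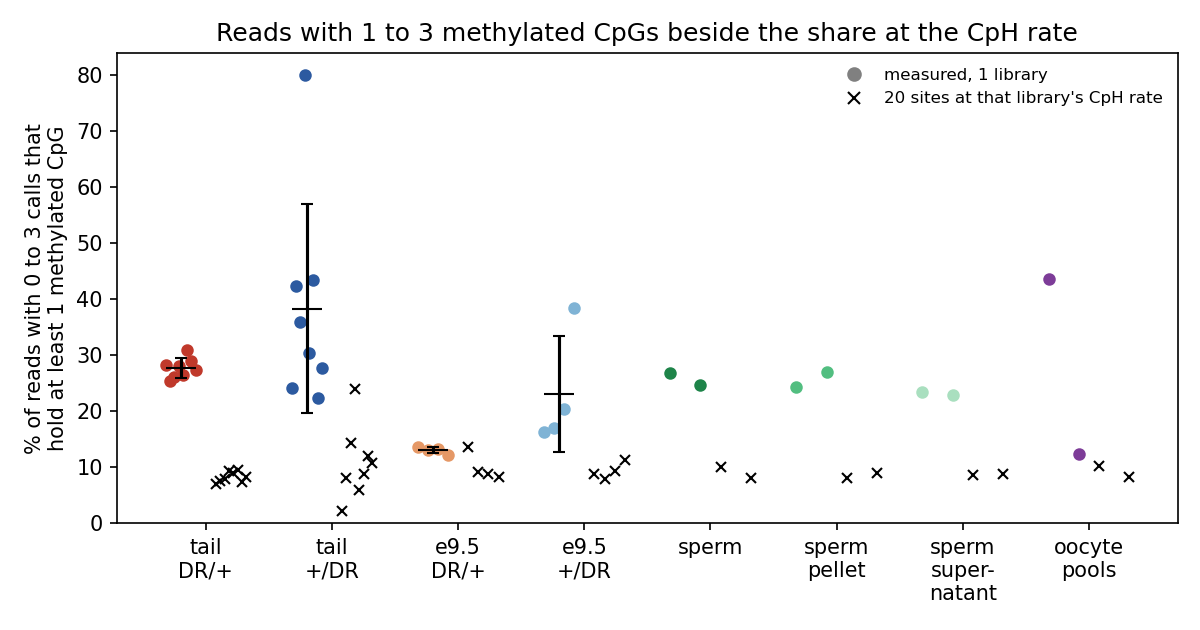
Percentage of reads with 0 to 3 methylated calls that held at least 1 call (circles, 1 per library) and the percentage that 20 sites would give at the unconverted CpH rate of the same reads (crosses), by group, for libraries with at least 20 such reads. Bars are the mean and SD of groups with more than 2 libraries, and the 8 maternal tails (DR/+) sit between 25.4 and 30.9 % while their crosses sit between 6.93 and 9.54 %.

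The rate exceeded that of CpHs at nearly every site of the maternal tails. For 18 of the 20 CpGs it was above the CpH rate of the library in all 8 tails, and the other two were CpG 12 (7 of 8 tails) and CpG 20 (6 of 8). In sperm, pellets and supernatants all 20 CpGs were above it in both libraries. In maternal e9.5 tissues 2 CpGs, 16 and 18, were above it in all 4 libraries, and in paternal e9.5 tissues 2 CpGs, 1 and 11.

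Sporadic reads were then compared with reads without any call in the same library for the number of unconverted CpHs per read, which the choice of reads had not used. In maternal tails sporadic reads held 0.248 ± 0.0395 and reads without a call 0.260 ± 0.0296 unconverted CpHs, a difference of -0.0119 ± 0.0193 that was above 0 in 2 of 8 tails. An exact sign-flip permutation test over the 8 tails gave p = 0.141, and 0.625 after adjustment over 5 groups. In the 4 sperm animals, with the fractions of an animal averaged, the difference was -0.0117 ± 0.0235 (exact sign-flip p = 0.375, adjusted 0.625). In maternal e9.5 tissues it was -0.0262 ± 0.0840 (exact p = 0.75, adjusted 0.75), and in 6 paternal tails 0.0131 ± 0.0951 (exact p = 0.719, adjusted 0.75). No group passed the test, and groups of 4 cannot go below p = 0.125.

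Single libraries departed from this. In paternal e9.5 tissues the difference was 0.139 ± 0.185 (exact sign-flip p = 0.25, adjusted 0.625, n = 4), and it was led by visceral organs, where sporadic reads held 0.586 and reads without a call 0.217 unconverted CpHs. In the oocyte pools sporadic reads held 0.579 beside 0.164 in pool 1 and 0.504 beside 0.242 in pool 2. Paternal head held 0.379 beside 0.216 and spine 0.375 beside 0.271. Maternal EE went the other way, with 0.314 beside 0.454, as did paternal EE, with 0.211 beside 0.291. In organs and in both oocyte pools much of the excess lay in 1 pattern. The 307 reads of oocyte pool 1 methylated at CpG 2 alone held 1.11 unconverted CpHs per read, and 98.05 % of them held at least 1, while its other sporadic reads held 0.207. In pool 2 the 511 reads methylated at CpG 6 alone held 0.967 and the others 0.283. In paternal organs the 227 reads methylated at CpG 8 alone held 1.13 and the others 0.219.

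**Figure D2:**
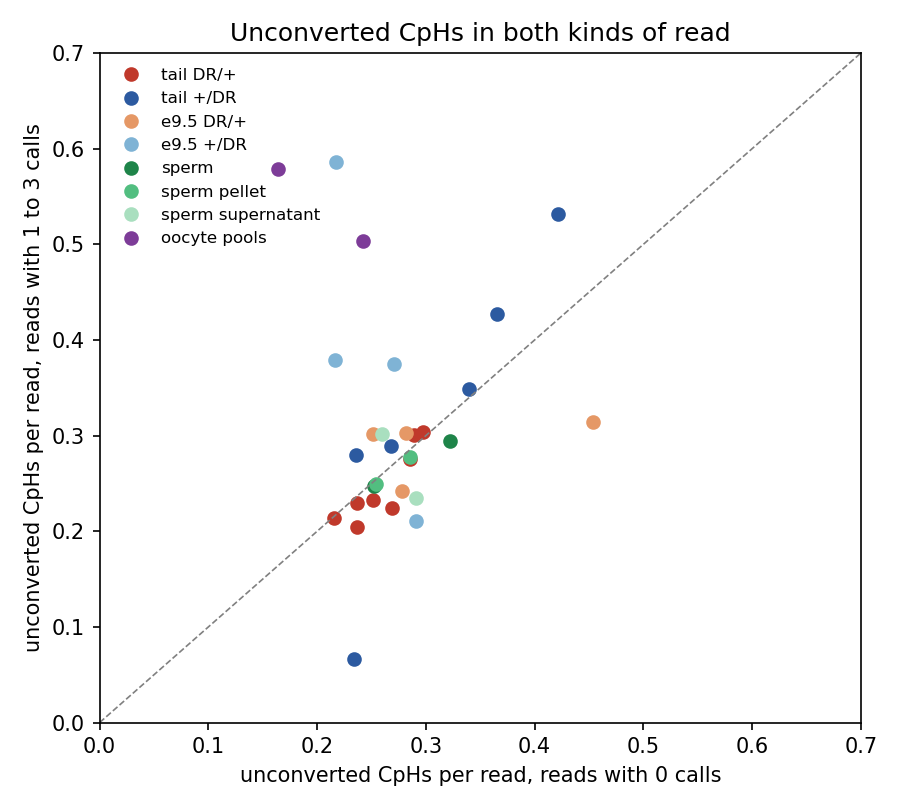
Mean number of unconverted CpHs per read in reads with 0 calls (horizontal axis) and in reads with 1 to 3 calls (vertical axis), 1 point per library with at least 20 reads of each kind, and a dashed line where both are equal. The maternal tails lie along the line, between 0.204 and 0.304 on the vertical axis, while both oocyte pools, paternal e9.5 organs and the paternal tail 31078 (0.531 beside 0.421) lie above 0.5.

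In maternal tails the sporadic calls had a fixed distribution along the amplicon. CpG 1 took the highest mean share, 11.1 ± 2.27 % of a library's sporadic calls (SD, n = 8, from 7.70 to 14.6 %), and was among the 5 highest CpGs in 7 of 8 tails. Equal shares would be 5 % per CpG. CpG 20 took the lowest, 1.69 ± 0.619 % (from 1.12 to 2.80 %). CpG 8 took 8.83 ± 2.38 %, and CpGs 2 to 6, 9 and 10 took mean shares between 6.11 and 7.88 %. From CpG 11 onward the means lay between 1.69 and 4.11 %. The rank order of the 20 CpGs was alike between these tails, with Spearman's rho from 0.690 to 0.901 and a median of 0.794 over the 28 pairs of libraries, given as a description over sites that share reads.

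CpG 7 broke the pattern. It lies among the 10 CpGs that took most calls in maternal tails, 6 nt after CpG 6 and 5 nt before CpG 8, and took 2.48 ± 0.934 % of the calls, never ranking above place 12 of 20 in any maternal tail. It also took the lowest mean share in paternal tails (0.238 ± 0.414 %, and 0.116 % without 31508), in paternal e9.5 tissues (0.976 ± 0.711 %, and 0.626 % without spine) and in the oocyte pools (0.381 % in pool 1 and 1.67 % in pool 2), and ranked from 18 to 20 in the sperm and pellet libraries. CpG 12, the other CpG followed by T, took the lowest mean share in maternal e9.5 tissues (2.41 ± 1.15 %) and in pellets (2.63 ± 0.182 %), and ranked 11 or lower in every maternal tail. CpGs 15, 17, 18 and 20, which are not followed by T, also ranked 12 or lower in every maternal tail. CpG 12 reached place 3 in 1 paternal tail, and CpG 7 place 6 in 1 maternal e9.5 tissue. The sequence of CpGs 7 and 12 was examined after their values had been seen. In the 2 supernatants they took 2.96 and 3.68 %, in the range of other CpGs, and the lowest was CpG 11 with 2.29 ± 0.8291 %.

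In reads with 4 to 16 calls CpG 7 was also among the lower sites in some groups. It was methylated in 65.5 ± 16.3 % of such reads in paternal tails (SD, n = 12), place 5 of 20 from the lowest, and in 46.4 ± 11.6 % in paternal e9.5 tissues (SD, n = 4), place 4. In unfractionated sperm it held place 10, with 62.9 ± 3.46 %. CpG 12 held places 2, 5 and 11 in these groups. CpG 7 held places 12, 10, 9 and 8 in maternal tails, maternal e9.5 tissues, pellets and supernatants, and CpG 12 places 3, 8, 10 and 5. In the 1 oocyte pool with enough such reads the places were 2 and 12.

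**Figure D3:**
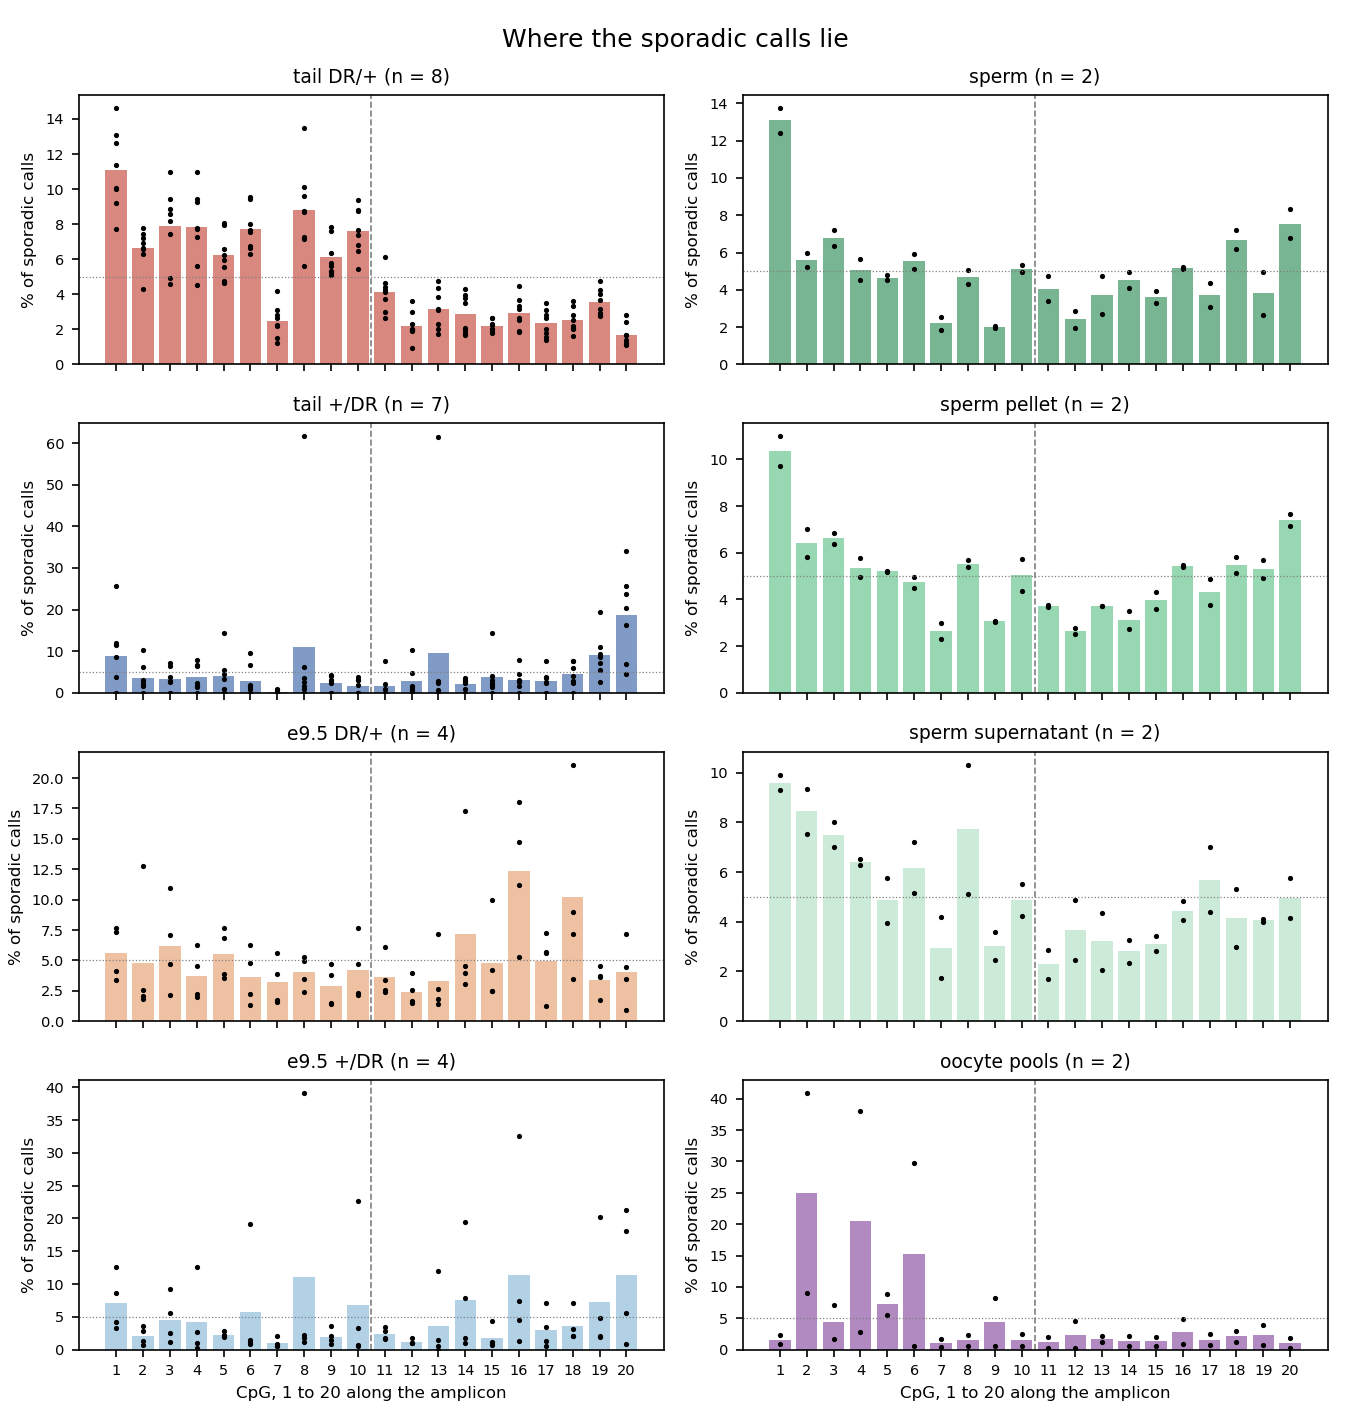
Share of the sporadic calls at each of the 20 CpGs, by group. Bars are the mean over libraries with at least 20 sporadic reads, dots are single libraries, the dotted line is the equal share of 5 % and the dashed line parts CpGs 1 to 10 from 11 to 20. In maternal tails CpG 1 takes 11.1 % and CpGs 11 to 20 between 1.69 and 4.11 % each, while in e9.5 tissues, paternal tails and oocyte pools single libraries stand far above the mean at a few CpGs.

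To compare groups, the share of a library's sporadic calls on CpGs 1 to 10 was tested. In the 8 maternal tails it was 72.4 ± 1.82 % (from 69.3 to 74.4 %). In the 7 paternal tails with enough reads it was 41.7 ± 17.96 %, with 15.4 % in 32415, 28.2 % in 31508, 40.5 % in both 31078 and 31819, 41.0 % in 31150, 55.2 % in 32529 and 71.2 % in 32802. The difference of -30.7 percentage points passed a two-sided exact permutation test (p = 0.000622, adjusted 0.00373 over 6 comparisons). The groups overlapped at 32802, where 37 of 60 sporadic reads were methylated at CpG 8 alone. In 32415, the lowest, 30 of 48 were methylated at CpG 13 alone. The values of 31150 and 31078 rest on 25 and 32 sporadic reads.

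Within a single run, the comparison could pass the threshold in run 2 only. There, 6 paternal tails had 36.8 ± 13.5 % and 4 maternal tails 72.2 ± 1.55 %, a difference of -35.4 points (exact permutation p = 0.00476, the smallest value possible, adjusted 0.0286). Run 1 held 4 maternal tails with 72.6 ± 2.27 % and 1 paternal tail with enough reads, 32802. The difference there was -1.41 points, given without a p-value since 1 library against 4 cannot pass the threshold. With each pattern counted 1 time per library the difference was -26.5 points (exact permutation p = 0.000155, adjusted 0.000932), and with only those reads in which every CpH had converted it was -20.2 points (exact permutation p = 0.00606, adjusted 0.0182). With at least 1 sporadic read in place of 20, which brings in 4 more paternal tails, it was -21.5 points (exact permutation p = 0.0154, adjusted 0.0462).

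Maternal e9.5 tissues differed from maternal tails too, although both hold an allele with little 5mC. The rate of calls was 1.48 ± 0.189 times the CpH rate in these tissues and 4.29 ± 0.625 times in the tails. The e9.5 calls thus stood closer to the background, and what this did to their position was not tested. The e9.5 tissues had 22.4 % of sporadic calls on CpGs 1 to 10 in EE, 49.2 % in head, 54.7 % in spine and 49.1 % in organs. Their mean was 43.8 ± 14.6 %, and no e9.5 library reached a tail. The difference of -28.6 points gave p = 0.00202 in an exact permutation test, the smallest value that 4 against 8 allow, and 0.00606 after adjustment. With each pattern counted 1 time per library it was -11.0 points, and with the most frequent pattern of each library left out -19.0, both with the same exact permutation p. Against the 4 maternal tails of run 2, the run that holds the e9.5 libraries, it was -28.3 points (exact permutation p = 0.0286, adjusted 0.0857), again the smallest value possible. Adjusted p-values lay between 0.00606 and 0.0857 over the alternatives. The 4 e9.5 libraries are different tissues that may come from 1 embryo, so these p-values may not measure spread between animals.

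The other comparisons did not pass. Paternal e9.5 tissues had 36.1 % in EE, 41.1 % in head, 37.7 % in spine and 72.4 % in organs. They differed from the maternal tissues by 2.99 points (exact sign-flip p = 0.875 over 4 tissues, adjusted 0.875) and from paternal tails by 5.12 points (exact permutation p = 0.661, adjusted 0.793). Sperm had 54.6 and 54.9 % and the oocyte pools 93.3 and 71.4 %. Pellets had 56.0 and 54.0 %, and supernatants 62.9 and 60.3 %. Neither pair of groups overlapped, but 2 libraries against 2 cannot go below p = 0.333 in this exact permutation test, which is the value both gave, with an adjusted p of 0.5.

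**Figure D4:**
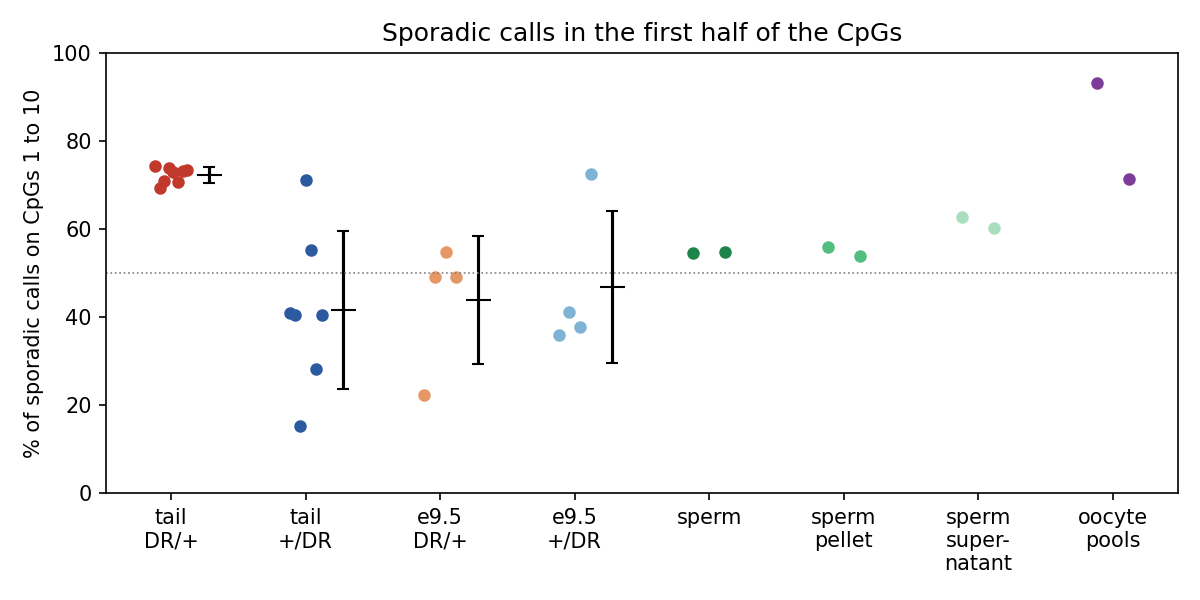
Percentage of sporadic calls on CpGs 1 to 10 in each library with at least 20 sporadic reads, by group, with the mean and SD of groups of more than 2 libraries at the right of the points and a dotted line at 50 %. The 8 maternal tails lie between 69.3 and 74.4 %, above all 4 maternal e9.5 tissues and 6 of the 7 paternal tails.

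In sperm, CpG 1 again took the highest mean share, 13.1 ± 0.952 % in unfractionated sperm, 10.4 ± 0.907 % in pellets and 9.60 ± 0.425 % in supernatants (SD, n = 2 each). In the supernatant of 35669 it was just below CpG 2, with 9.30 beside 9.36 %. CpG 20 ranked second in sperm, with 7.55 ± 1.09 %, and in pellets, with 7.39 ± 0.363 %. In supernatants it took 4.96 ± 1.13 %, close to the equal share, and ranked 8. The rank order of CpGs had a rho of 0.789 between both sperm libraries, 0.888 between both pellets and 0.580 between both supernatants. The lowest CpG of unfractionated sperm was CpG 9, with 2.01 ± 0.0557 %.

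In the few sporadic reads of paternal tails CpG 20 was the highest, with 18.8 ± 10.45 % of the calls (SD, n = 7). It took 34.0 % in 31508, 25.6 % in 31150, 23.8 % in 31078, 20.5 % in 31819 and 16.2 % in 32529, and 6.85 and 4.62 % in 32802 and 32415. It was among the 5 highest CpGs in all 7 of these tails, where it ranked last in the mean of the maternal tails. In paternal e9.5 tissues CpG 20 was also the highest in the mean, at 11.4 ± 9.78 %, through head (18.1 %) and spine (21.3 %), while EE had 0.887 % and organs 5.55 %.

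In EE of both transmissions, paternal organs, oocytes and 2 of the paternal tails, a few patterns of calls made up much of the class. The most frequent pattern made up less in maternal head, spine and organs, at 13.1, 14.1 and 11.7 % of sporadic reads. In paternal head and spine it made up 17.3 and 17.6 %. In maternal EE the reads methylated at CpG 18 alone numbered 306 and those methylated at 14 and 16 together 237, which was 79.5 % of its reads with 2 calls. In paternal EE 299 of 749 sporadic reads were methylated at CpG 16 alone and 179 at CpGs 6 and 14. In paternal organs CpGs 8, 10 and 13 alone accounted for 227, 130 and 69 of 561 reads. The rank order of CpGs had a median rho of 0.0740 over the 6 pairs of maternal e9.5 libraries and 0.209 over the 6 pairs of paternal ones. The highest CpG of the maternal tissues, CpG 16, took 18.01 % of calls in EE, 14.8 % in spine, 11.2 % in organs and 5.32 % in head.

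In the maternal tails the most frequent pattern made up 7.47 to 11.7 % of sporadic reads, and 71 to 154 of the 1350 possible patterns of 1 to 3 calls were seen per tail. The most frequent pattern made up 17.3 to 40.5 % in paternal e9.5 tissues, 11.7 to 26.0 % in maternal e9.5 tissues and 13.6 to 62.5 % in the 7 paternal tails. The last of these was 32415, where 30 of 48 reads were methylated at CpG 13 alone and each of the 30 held at least 1 unconverted CpH.

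Oocyte pool 1 consisted mainly of 3 patterns, with 307, 279 and 61 of its 746 sporadic reads methylated at CpG 2, 4 or 5 alone. It had 41 reads with 2 calls and none with 3. CpG 2 was the highest of the oocyte group, with 40.9 % of calls in pool 1 and 9.07 % in pool 2. In pool 2 the pattern of CpGs 2, 3 and 5 was 75 % of the 84 reads with 3 calls, and 94.0 % of those reads had all their calls within CpGs 2, 3, 5 and 9, the CpGs of its frequent reads with 4 calls.

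Whether calls sat next to each other was measured in the reads with exactly 2. The percentage of these with both calls at neighbouring CpGs was set against the percentage under independent placement, computed over all 190 pairs of CpGs with odds taken from the reads with 1 call of the same library. In the 8 maternal tails 19.4 ± 7.34 % were neighbours where independent placement gave 10.49 ± 0.992 %. The excess was 24.9 points in 31071, 9.26 in 31075, 5.12 in 31289, 10.7 in 31544, 13.4 in 32181, 2.39 in 32178, 4.63 in 32803 and 0.523 in 32804. It was above 0 in 8 of 8 tails, with a mean of 8.87 ± 7.79 points (exact sign-flip p = 0.00781, the smallest value possible, adjusted 0.0391 over 5 groups).

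This call was a narrow one. When any of the 8 tails was left out, the mean lay between 6.58 (without 31071) and 10.1 points and the adjusted p was 0.0781, the smallest that 7 tails allow. With each pattern of 2 calls counted 1 time per library the excess was 3.89 points (exact sign-flip p = 0.0391, adjusted 0.195), and with reads in which every CpH had converted 8.66 points (exact sign-flip p = 0.0312, adjusted 0.156). Over all alternatives the adjusted p lay between 0.0312 and 0.195 and the excess between 3.89 and 10.8 points.

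The spacing of the neighbours with an excess differed between groups. Over the 2890 reads with 2 calls of the maternal tails, the 4 neighbouring pairs that are 2 nt apart held 233 reads where independent placement gave 105, a ratio of 2.22. The 8 pairs at 4 to 9 nt held 149 where 110 were given (1.36), and the 7 pairs at 11 to 22 nt held 150 where 92.9 were given (1.61). CpGs 4 and 5 were methylated together in 85 reads where 26.8 were given, above the given number in 4 of 8 tails, and CpGs 2 and 3 in 81 where 34.2 were given, above it in 7 of 8. CpGs 3 and 4, 5 nt apart, held 30 where 42.8 were given, although they were above the given number in 5 of 8 tails. Some pairs farther apart also had high ratios. CpGs 18 and 19 (5 nt) held 20 reads where 6.80 were given, and were above the given number in 3 of 8 tails. CpGs 5 and 6 (11 nt) held 57 where 20.2 were given, and were above it in 6 of 8. In sperm, pellets and supernatants the class at 4 to 9 nt had the highest ratio, 4.32, 3.04 and 2.97, and the pairs 2 nt apart had 0.908, 1.93 and 0.612. The 0.908 of sperm rests on 3 reads where 3.30 were given. In supernatants the ratio at 4 to 9 nt rested on 1 pair. CpGs 7 and 8 held 52 of its 75 reads where 2.23 were given, and were above the given number in 1 of 2 libraries.

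In sperm the excess was 9.43 points in 35084 and 20.1 in 35090, 11.3 and 13.8 in the 2 pellets, and -2.27 and 8.52 in the 2 supernatants. Averaged by animal it was 11.3 ± 6.52 points and above 0 in 4 of 4 males (exact sign-flip p = 0.125, the smallest value possible, adjusted 0.312). In the pellets the highest ratios were those of 2 pairs near the 3′ end. CpGs 18 and 19 held 34 reads where 5.29 were given, and CpGs 17 and 18 held 23 where 4.46 were given. Pairs at CpGs 1 to 10 were above the given number too, with 30 reads beside 12.9 for CpGs 2 and 3 and 16 beside 4.23 for CpGs 8 and 9.

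The e9.5 tissues had no common direction. The excess was -8.07 points in EE, 0.111 in head, 16.6 in spine and -6.25 in organs with maternal transmission, a mean of 0.591 ± 11.2 (exact sign-flip p = 0.875, adjusted 0.875). With paternal transmission it was -8.22 in EE, -1.83 in head, 12.3 in spine and 3.21 in organs, a mean of 1.36 ± 8.65 (exact sign-flip p = 0.75, adjusted 0.875). In maternal spine 28 of the 109 reads with 2 calls were methylated at CpGs 5 and 6, a pair seen in 1 of the 4 maternal tissues. The 2 paternal tails with at least 20 such reads had 3.75 points in 32529 and 21.8 in 31819 (exact sign-flip p = 0.5, adjusted 0.833). None of 4 comparisons of this excess between groups passed an exact permutation test, and the lowest p was 0.168 for maternal e9.5 tissues against maternal tails (adjusted 0.444, a difference of -8.28 points).

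**Figure D5:**
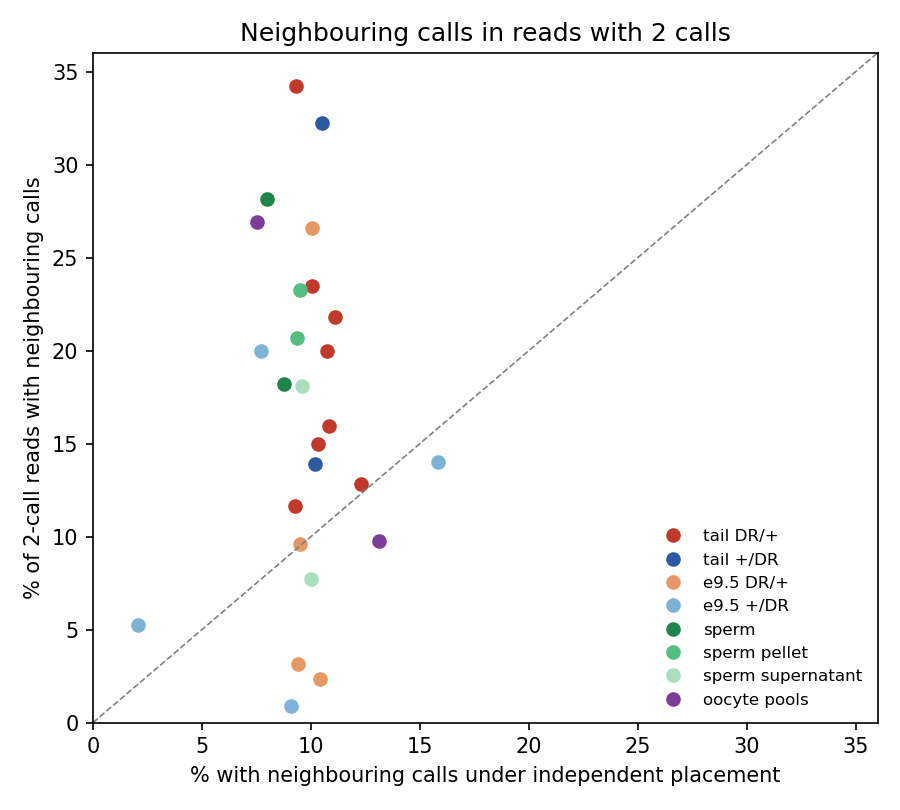
Percentage of reads with exactly 2 calls in which both lie at neighbouring CpGs (vertical axis) and the percentage under independent placement (horizontal axis), 1 point per library with at least 20 such reads, and a dashed line where both are equal. All 8 maternal tails lie above the line, by 0.523 to 24.9 points, while e9.5 libraries lie on both sides of it.

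In tails and sperm, reads with 2 calls were more numerous than independent calls would make them. From the reads with 0 and 1 call of each library, independence would give a number that the measured one exceeded 2.07 ± 0.458 times in maternal tails (from 1.26 to 2.55), 2.25 and 2.34 times in sperm, 1.80 and 1.69 times in pellets, and 1.17 and 1.99 times in supernatants. In maternal e9.5 tissues the ratio was 7.24 in EE, with its frequent pair of CpGs 14 and 16, and 0.948 in head, 1.92 in spine and 1.35 in organs. In paternal e9.5 tissues it ran from 0.375 in organs to 10.95 in EE, and it was 0.248 in oocyte pool 1 and 1.43 in pool 2. These ratios rest on the numbers of calls that chose the reads and carry no test.

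Runs of 3 calls were frequent in sperm. Of the reads with 3 calls, 17.5 ± 1.79 % in sperm, 23.8 ± 0.253 % in pellets and 28.0 ± 15.5 % in supernatants (SD, n = 2 each) had all 3 at consecutive CpGs, where independent placement gave 1.34, 1.44 and 1.53 %. In the 7 maternal tails with at least 20 such reads the percentage was 9.07 ± 7.90 where 1.99 ± 0.428 % was given, and it was 0 in 31289 and 32178. The most frequent pattern of 3 calls was CpGs 8, 9 and 10 in maternal tails, at 3.91 ± 4.48 % of those reads, and CpGs 18, 19 and 20 in pellets, at 7.19 ± 1.58 %. In the supernatants it was CpGs 2, 3 and 4, through 35670 alone, where it made up 27.6 %. In the paternal tail 32529 it was CpGs 1, 2 and 3, at 20.7 % of 29 reads, and 48.3 % of those reads were runs.

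A run at the 3′ end recurred just above the limit of the class. The most frequent pattern of 4 calls was CpGs 17, 18, 19 and 20 in 7 of the 15 libraries with at least 20 such reads. It made up 20.7 and 34.3 % of them in the pellets, 15.8 % in the supernatant of 35669, 40 % in the paternal tail 32529, 44 % in 31819, 73.0 % in paternal head and 71.1 % in paternal spine. It was the most frequent in none of the 4 maternal tails with enough reads. Within the class, the pair of CpGs 19 and 20 was the most frequent pattern of 2 calls in the mean of paternal tails (10.9 ± 11.9 %, n = 2), while in maternal tails it was CpGs 6 and 8 (2.80 ± 3.45 %, n = 8). The pair of CpGs 19 and 20 led through 31819, with 19.4 % of 31 reads with 2 calls. In 32529 it made up 2.53 % of 79 such reads, and CpGs 6 and 19 made up 11.4 %.

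The 4 tails of the maternal lineage had a sporadic share of 27.2 ± 1.49 % and the 4 of the alternating lineage 27.6 ± 2.30 %, with 72.6 ± 2.27 and 72.2 ± 1.55 % of calls on CpGs 1 to 10. Their CpH rates were 0.389 ± 0.0295 and 0.468 ± 0.0390 %. All tails of the maternal lineage were sequenced in run 1 and all of the alternating lineage in run 2, so a difference of lineage cannot be told apart from a difference of run.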

How the data were processed

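Bisulfite PCR products of the *Wnt1DR* DMD were sequenced on a MiSeq. The authors filtered the reads, shortened the files of run 2 and aligned reads to the unconverted reference with QUMA. Per the file headers, reads with more than 5 unconverted CpHs, under 95 % conversion or more than 10 mismatches were excluded, with an identity limit of 90 % in 33 files and 98 % in 3. The deposited tables give per read the counts of methylated CpGs, unconverted CpHs and mismatches, the percent identity, and a string of calls. Of 1264215 reads listed, 283290 passed these limits at 98 % identity, and 3073 of them (1.08 %) with another call at 1 of the 20 CpGs were left out. In 8 libraries 3509 call strings were unreadable, 221 of them at 98 % identity. The first of 21 CpGs, in the forward primer, and the last 3 of 23 in oocytes were dropped.

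Values were computed per library. Positions of calls needed at least 20 sporadic reads, the CpH difference also 20 reads without a call, and neighbours 20 reads with 2 calls. Each animal, tissue or pool was 1 replicate. Two-sided exact permutation tests served between groups, sign-flip tests for differences within libraries or tissues, with Benjamini-Hochberg adjustment within each measure, at a threshold of 0.05. The reads and the lists of sites were chosen with earlier results of these data known. CpGs named are the highest and lowest of each group, and patterns the most frequent of each group. CpGs 7 and 12 together, and patterns of single libraries, were chosen after their values were seen. No labels show that e9.5 tissues came from separate embryos, so p-values there may measure technical spread. Code was tested on simulated data. Computation used NumPy 2.4.6 and SciPy 1.17.1 in Python 3.11.15, with plots by Matplotlib 3.10.9.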

Additional observations from a re-analysis of the deposited data

Results flagged for a closer look

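Values far from the others of their group were looked for in 26 groups of 4 to 10 libraries, and chance gives about 1 in 20. There were 2. The sporadic reads of the paternal tail 32802 held 0.167 fewer unconverted CpHs than its reads without a call (a difference of -0.167), while the other 5 paternal tails had differences from 0.00844 to 0.110. In paternal e9.5 organs 72.4 % of sporadic calls lay on CpGs 1 to 10, while the other 3 paternal tissues had 36.1 to 41.1 %.

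The difference in unconverted CpHs per read between sporadic reads and reads without a call was below 0 in both sperm libraries (mean -0.0166) and both pellets (mean -0.00610), and above 0 in both oocyte pools (mean 0.338). The gaps were -0.355 for sperm against oocytes and -0.345 for pellets against oocytes. These differences were not tested, and oocytes alone had a nested PCR.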

How the results depend on the processing

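Over the alternatives, 480 of 542 values of the main results kept their direction, their side of the threshold or their size, as did 132 of 136 values for single CpGs. The causes of the changes were not tested. Alternatives that count each pattern 1 time (on CpGs 1 to 10), leave out the most frequent pattern, leave out EE, or use run 2 tails only were chosen after seeing the data.

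The share of calls on CpGs 1 to 10 gave -1.41 for paternal against maternal tails in run 1 alone, where 1 paternal library cannot pass the test, and -28.3 for maternal e9.5 tissues against the tails of run 2, where the smallest possible p missed the threshold after adjustment. The neighbour excess of maternal tails did so with every CpH converted (8.66), without mismatches (7.48), in libraries with 3000 or more reads (7.80), with each pattern of 2 calls counted 1 time (3.89), and without any 1 tail (6.58 to 10.1).

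Results that had passed no test also changed sign. The neighbour excess of maternal e9.5 tissues became -2.15 with every CpH converted, -0.297 without mismatches, -2.20 with reads pooled, -1.48 with each pattern counted 1 time and -3.01 without the most frequent pattern, and lay between -4.73 and 3.48 without 1 library. That of paternal e9.5 tissues became -5.02 at 50 or more reads and -1.66 with reads pooled, and lay between -2.28 and 4.55 without 1 library. Its difference between paternal and maternal tails became -1.24, -5.12, -3.01 and -1.09 with every CpH converted, 50 or more reads, each pattern counted 1 time and the most frequent left out (-5.12 to 12.9 without 1 library). With each pattern counted 1 time it became 1.12 for paternal e9.5 tissues against tails and 0.847 for supernatants against pellets. The share on CpGs 1 to 10 in paternal e9.5 tissues against paternal tails became -6.47 with every CpH converted, -0.851 without mismatches, -1.94 at 50 or more reads, -4.03 at 1 or more and -0.321 with reads pooled (-3.41 to 10.04 without 1 library). Between e9.5 transmissions it became -0.863 without the first and last CpG and -4.70 with each pattern counted 1 time (-3.80 to 9.67 without 1 library). The CpH difference of paternal tails became -0.116 without mismatches, -0.0191 at 50 or more reads, -0.00632 with 3000 or more reads and -0.00290 without the most frequent pattern (-0.00632 to 0.0491 without 1 library), and that of maternal e9.5 tissues 0.0118 without EE (-0.0516 to 0.0118 without 1 library).

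Shares without the first and last CpG were 24.8 % in maternal tails, 11.95 % in maternal e9.5 tissues, 12.3 % in sperm, 14.6 % in pellets and 15.7 % in supernatants. Without the most frequent pattern they were 25.3, 10.3, 12.6, 15.1 and 16.2 %, and that of paternal e9.5 tissues was 3.36 %. Without mismatches the share in sperm was 13.3 %, and the ratio to the CpH rate 3.32 in sperm and 3.74 in pellets.

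With the replicate number (the male) as a block, supernatants against pellets gave 6.62 points on CpGs 1 to 10 (exact sign-flip p = 0.5) and -9.41 points of neighbour excess (exact sign-flip p = 0.5). Without the replicate block of tissue, the e9.5 transmissions differed by 2.99 points (exact permutation p = 0.771). No call changed.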
